A study of Mus musculus with 12 samples.

Results

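Long intergenic non-coding RNAs (lincRNAs) were examined in mouse heart through the microarray probes whose description begins with the word lincRNA. The array carried 4460 such probes, placed in 3240 regions of the mm9 assembly, among 56605 non-control probes. The probes described here were chosen by their measured signal: a lincRNA probe was taken as expressed in heart where the scanner software flagged its signal as well above background on all 3 arrays of at least 1 of the 4 experimental groups. This held for 1340 probes (30.0%), which lay in 1138 regions and which are called the expressed lincRNA probes here. Since measured signal chose these probes, their detection is a description and was not tested.

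lincRNAs are transcribed by RNA polymerase II from stretches of DNA between protein-coding genes, and many are capped, spliced and polyadenylated like messenger RNAs. They tend to be expressed at lower levels and in fewer tissues than messenger RNAs, and most have no known function. Among those that have been studied, Neat1 builds the nuclear bodies called paraspeckles, Kcnq1ot1 silences neighbouring genes of an imprinted domain, Tug1 is a broadly expressed regulatory RNA, and H19 is an imprinted RNA of fetal and muscle tissue.

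Hearts came from 12 male C57BL6/J mice aged 5 months, with 1 array per mouse and 3 mice per group. Control mice (C) received neither streptozotocin nor pargyline, since the 2 groups not given pargyline were assigned to vehicle. Control mice with pargyline (C + P) were given this inhibitor of monoamine oxidase (MAO) at 50 mg/kg per day for 12 weeks. Diabetic mice (D) had received streptozotocin, a toxin of pancreatic β-cells, at 50 mg/kg per day on 5 days, and a blood glucose of at least 17 mM defined diabetes. Diabetic mice with pargyline (D + P) received both. The animals carried no transgene, and the deficit of insulin was chemical, so direct effects of streptozotocin and effects of diabetes cannot be told apart.

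The 60-base probes below carry the results that follow, and each is given 5′ to 3′ as in the scanner files, with the mm9 region and strand of the lincRNA it was designed for. The capitals mark the letters AATAAA, the common signal for polyadenylation, where a probe holds them. First come the probes whose signal was lower or higher in the diabetic hearts both without and with pargyline.
chr19:5834117-5835940, reverse strand: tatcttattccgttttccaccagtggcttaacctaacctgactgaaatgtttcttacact
chr5:149947200-149979950, forward strand: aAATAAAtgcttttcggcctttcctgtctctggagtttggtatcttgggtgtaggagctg
chr19:56815544-56821403, reverse strand: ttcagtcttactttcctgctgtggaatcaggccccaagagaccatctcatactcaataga
chr2:77655293-77657696, reverse strand: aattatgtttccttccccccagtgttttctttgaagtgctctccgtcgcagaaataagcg
chr9:41488229-41545481, reverse strand: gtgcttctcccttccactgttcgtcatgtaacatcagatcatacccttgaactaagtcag
chr8:18587198-18592948, forward strand: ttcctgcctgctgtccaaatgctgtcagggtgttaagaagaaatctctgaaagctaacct
chr12:88216447-88224965, forward strand: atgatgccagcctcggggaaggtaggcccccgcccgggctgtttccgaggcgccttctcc

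The next probes are, in order, those lower with pargyline in both C + P and D + P, one higher in C + P, and one whose diabetes difference had opposite signs without and with the drug.
chr10:24269165-24276690, forward strand: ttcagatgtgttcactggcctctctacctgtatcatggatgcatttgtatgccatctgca
chr11:97457180-97487074, reverse strand: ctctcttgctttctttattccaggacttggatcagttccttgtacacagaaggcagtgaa
chr4:131905739-131910814, forward strand: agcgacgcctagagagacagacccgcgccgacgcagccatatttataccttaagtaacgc
chr7:117140887-117152562, reverse strand: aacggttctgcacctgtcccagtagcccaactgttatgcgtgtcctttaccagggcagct

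The lincRNA probes that the array labels by a gene name and that were expressed in heart are given for reference.
NEAT1, chr19:5842306-5845476, reverse strand: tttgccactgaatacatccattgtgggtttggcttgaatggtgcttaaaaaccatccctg
TUG1, chr11:3539796-3547536, reverse strand: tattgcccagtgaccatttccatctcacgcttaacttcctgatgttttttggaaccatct
KCNQ1ot1, chr7:150399015-150482452, forward strand: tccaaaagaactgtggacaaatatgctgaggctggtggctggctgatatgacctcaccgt

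The last pair lies at the same 60 bases of chromosome 3, 127111828 to 127111887 in mm9, within the region chr3:126989696-127112471, and one probe is the reverse complement of the other.
Forward strand: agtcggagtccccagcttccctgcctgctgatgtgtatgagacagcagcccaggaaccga
Reverse strand: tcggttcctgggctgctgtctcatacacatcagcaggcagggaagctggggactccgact

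The share of all lincRNA probes well above background ran from 23.9% to 33.9% per array, and that of all other probes from 38.2% to 48.1%. D replicate 1 (23.9%), D replicate 3 (24.8%), C + P replicate 1 (25.2%) and D + P replicate 1 (25.4%) stood below the other 8 arrays, which lay between 29.9% and 33.9%. The mean share was 28.4% ± 4.11 (SD, n = 6) in diabetic and 31.0% ± 3.18 (SD, n = 6) in non-diabetic hearts, and the difference of -2.56 percentage points did not pass an exact two-sided permutation test (p = 0.264 over 924 arrangements). With and without pargyline the shares were 29.3% ± 3.17 and 30.1% ± 4.52 (SD, n = 6 each), and the exact permutation p was 0.626. The other probes differed in the same direction (difference -2.77 percentage points for diabetes, exact permutation p = 0.139). These pooled shares do not show the groups apart. For lincRNA probes the shares were 33.3%, 33.9% and 32.3% in C, and 25.2%, 29.9% and 31.3% in C + P. They were 23.9%, 32.6% and 24.8% in D, and 25.4%, 31.9% and 32.0% in D + P. Every C + P array lay below every C array, while D overlapped C and D + P overlapped both D and C + P. All C and D arrays lay on one slide and all C + P and D + P arrays on another, so that pargyline and slide cannot be told apart, and the non-diabetic and diabetic hearts lay in different rows of each slide, so that diabetes and row cannot be told apart. All 8 cardiac muscle markers looked up were well above background on 12 arrays. The markers Adipoq, Plin1, Actn3, Myh1, Alb and Apoa1 of fat, skeletal muscle and liver were well above background on 0 arrays, while Cfd, the other fat marker, was so on 5 arrays and Myh4, the other skeletal muscle marker, on 4. The summed log2 level of the 4 atrial muscle markers ran from 13.44 to 13.96 on the C arrays and from 14.28 to 14.76 on the C + P arrays. It ran from 15.15 to 15.52 on the D arrays and from 14.57 to 15.58 on the D + P arrays. Nppa made up nearly all of this sum, at 13.41 to 15.57 over the 12 arrays. Myl4 lay at 7.48 to 8.33, Myl7 at 3.59 to 6.09 with 4 arrays well above background, and Sln was so on 0 arrays. The sum therefore follows Nppa and does not measure atrial muscle. The median over the markers was 0.94 for D against C, -0.37 for D + P against C + P and -0.05 averaged over pargyline. The 4 macrophage markers, all on 12 arrays, summed to 12.09 to 12.52 in C + P and 11.72 to 12.04 in D + P (median difference -0.72), and to 11.98 to 12.43 in controls and 11.63 to 12.07 in D (-0.32). The 4 endothelial markers, all on 12 arrays, summed to 12.78 to 13.21 in D and 13.35 to 13.70 in D + P (0.37). The part of these cell types in the differences below was not tested. In whole tissue, fewer cells of a type and less RNA per cell cannot be told apart.

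**Figure D1:**
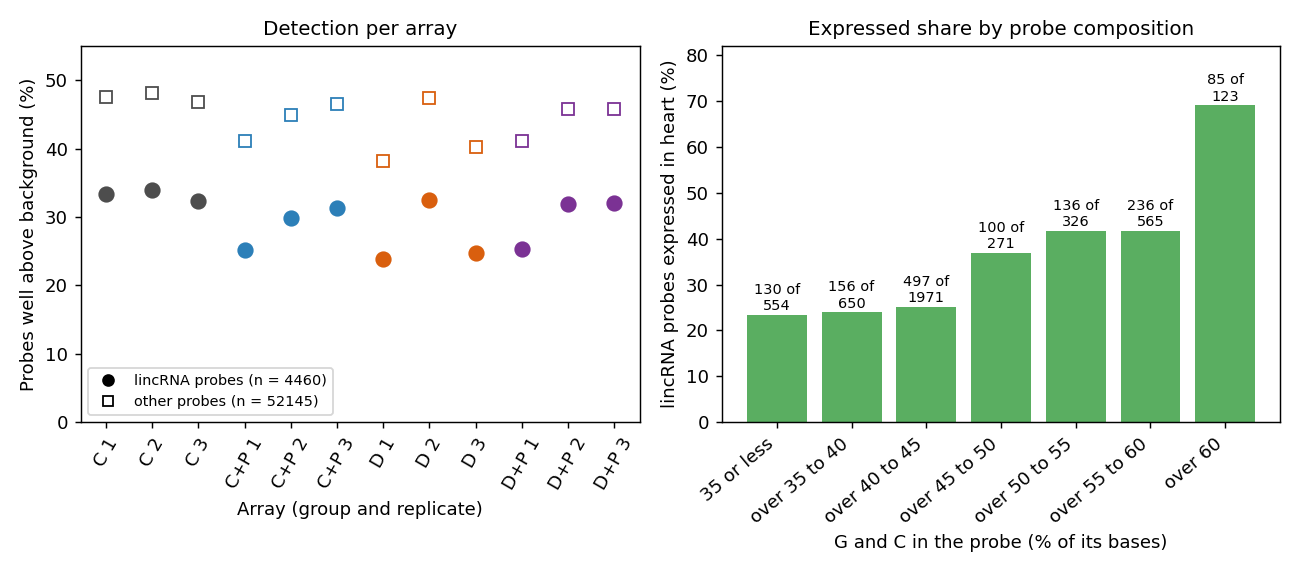
The left panel plots, for each array, the percentage of lincRNA probes (filled circles) and of all other probes (open squares) well above background, coloured by group. The right panel plots the percentage of lincRNA probes expressed in heart by the G and C content of the 60-base probe, with the number expressed and the number on the array above each bar, which reaches 69.1% for probes over 60% G and C.

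Of the 1340 expressed probes, 820 (61.2%) were well above background on all 12 arrays and 520 on fewer. Detection on all 3 arrays of a group held for 1294 of them among controls, for 1040 in the C + P group, for 902 in the D group and for 1048 in the D + P group. The commonest partial pattern was detection on all arrays of C alone, with 169 probes (12.6%), against 6.97% of the other probes that met the same rule. Each group but C held an array among those lowest in detected probes, and the part of this in the pattern was not tested. Among other probes, 23517 of 52145 (45.1%) met the rule. Near the threshold, the 5 expressed probes with the fewest arrays well above background (3 arrays) had mean log2 intensities of 4.57 to 4.94. The 5 lincRNA probes with most arrays that still missed the rule (8 arrays) had means of 5.46 to 7.15. At the other end, 2460 lincRNA probes (55.2%) were well above background on 0 of 12 arrays.

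The expressed probes divided evenly between the strands, with 664 on the forward and 676 on the reverse strand, and they came from 20 chromosomes. Chromosomes 1 and 2 held most, 103 each, and the expressed share was 39.2% on chromosome 14, 21.6% on the X and 20.5% on chromosome 18. Their regions had a median length of 13284 bases, against 9432 bases for lincRNA probes that were not expressed. The expressed share was 21.0% in regions up to 1 kb and 35.2% in regions of 20 to 100 kb. The median distance from the region of an expressed probe to the nearest array probe with a RefSeq gene name was 14583 bases, and 31.3% of expressed probes had one within 5 kb. For 85.6% of expressed probes no such gene probe lay inside the region, while 104 had one inside on the same strand, 44 of them of a protein-coding gene.

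The expressed share also varied with the composition of the probe. It went from 23.5% of lincRNA probes with at most 35% G and C to 41.8% of those with over 55 to 60% and 69.1% of those with over 60%, which is 85 of 123 probes. The probe for chr12:88216447-88224965, with 70.0% G and C, is among them. The part of base composition in the signal itself was not tested. The letters AATAAA, searched on the given strand of the probe only, occurred in 4.78% of expressed and 3.65% of other lincRNA probes, against 10.3% of all other probes on the array.

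Both strands could be compared in 832 regions that had a probe on each. In 346 of them (41.6%) expressed probes lay on exactly 1 strand, in 139 (16.7%) on both and in 347 (41.7%) on neither. In 261 of the 346 regions every probe of the other strand was well above background on 0 of 12 arrays. The pair of reverse complementary probes printed above for chr3:126989696-127112471 shows this with both probes at the same bases. Its forward probe had log2 intensities of 7.94, 7.97, 8.01, 7.59, 7.82, 7.50, 8.35, 8.06, 8.34, 8.41, 7.76 and 8.06 in C, C + P, D and D + P replicates 1 to 3 and was well above background on 12 arrays. The reverse probe lay at 2.89 to 4.98 and was well above background on 0 arrays. The forward signal was seen in hearts of all 4 groups, with the D arrays above all C arrays and the D + P and C + P arrays overlapping. A second such pair, in chr19:61177675-61219875, was detected on the reverse strand on 9 arrays and on the forward strand on 0. In the remaining reverse complementary pairs outside chromosome 18 neither probe was expressed.

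Both strands were expressed on all 12 arrays in 59 regions. In chr1:95871175-95886625 the forward probe had log2 intensities of 10.25, 10.35 and 10.40 in C, 9.82, 10.06 and 10.16 in C + P, 10.83, 10.25 and 10.34 in D, and 10.36, 10.41 and 10.17 in D + P. The reverse probe of that region had 6.81, 6.71 and 6.61 in C, 7.03, 6.85 and 6.34 in C + P, 7.32, 7.05 and 7.50 in D, and 6.62, 6.56 and 7.07 in D + P. The reverse probe was higher on each D array than on each C array, while the forward D arrays overlapped the C arrays. The D against C differences were 0.58 ± 0.22 (SE, n = 3 against 3) for the reverse and 0.14 ± 0.18 (SE, n = 3 against 3) for the forward probe, and the adjusted p of limma's moderated test was 0.407 and 0.785. The other such regions named by position were chr1:63264155-63345773, chr1:93744621-93825321 next to the transcription factor gene Twist2, chr1:138528250-138538250 near the zinc finger gene Zfp281, and chr2:151992806-152025456. The smallest adjusted p of their probes for D against C was 0.469.

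Of the 1340 expressed probes 1335 could be tested for differences between groups, and 5 missed the filter, which asked that in each group 50% or more of the arrays show a positive and significant signal. Expressed lincRNA probes below an adjusted p of 0.05 numbered 0 in all 6 comparisons. Over all 30859 tested probes the share below that threshold was 0.00648% for D against C, 0.0454% for D + P against C + P, 0.107% for diabetes averaged over pargyline, 0.0324% for C + P against C, 0% for D + P against D and 0.00648% for the interaction. The smallest adjusted p among expressed lincRNA probes was 0.215, 0.249, 0.0733, 0.420, 0.0990 and 0.309 in the same order. No lincRNA probe was saturated, and the number of arrays limits the precision.

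Counts at an unadjusted p of 0.05 are given for the 820 expressed probes on 12 arrays, beside the 18334 tested probes with the same detection and all 30859 tested probes, since the other 515 tested expressed probes include some that were expressed only through a group in which they were high. For D against C the count was 118 (14.4%, against 10.3% with the same detection and 10.8% of all), with 95 higher and 23 lower in D. For D + P against C + P it was 41 (5%, against 6.4% and 7.46%), and for diabetes averaged over pargyline 90 (11%, against 11.5% and 11.4%). With pargyline it was 57 for C + P against C (6.95%, against 3.89% and 4.43%) and 162 for D + P against D (19.8%, against 12.3% and 13.3%), the latter with 40 higher and 122 lower in D + P. The interaction gave 48 (5.85%, against 5.37% and 7.03%). The 515 split the other way, with 24 higher and 54 lower for D against C and 64 higher and 38 lower for D + P against D, which is a description of probes whose selection bears on these differences.

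Groups that did not overlap at all made up 23% of the 820 for D against C, beside 25.5% of the tested probes with the same detection and 22.2% of all. The shares were 13.5% for D + P against C + P (14.5% and 13.9%), 1.95% for both of these with 1 direction (3.13% and 2.50%), 20.5% for C + P against C (16.8% and 15.3%) and 21.3% for D + P against D (18.4% and 17.0%).

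Differences between groups were summarised over the probes detected throughout. For the 820 probes well above background on all arrays the median log2 difference for D against C was 0.17 (interquartile range -0.07 to 0.35), and 562 (68.5%) were higher in D. Over all 18334 tested probes with the same detection the median was 0.02 and 53.0% were higher. In D + P against C + P the median of the 820 was 0.03, and in D + P against D -0.14, where 281 (34.3%) were higher in D + P. C + P against C gave -0.01. The sign turned in the 515 tested probes detected on fewer arrays, with a median of -0.18 for D against C (38.4% higher in D) and 0.18 for D + P against D (59.8% higher in D + P). A probe that was expressed only through a group in which it was high had to differ, so the 515 are given as a description. Over all 1335 tested probes the medians were 0.08 (56.9% higher) and -0.07 (44.1% higher). These comparisons share arrays, D with D + P against D and C with C + P against C, so their medians are not independent.

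The D arrays differed among themselves in this shift. The median log2 intensity of the 820 probes was 8.25, 8.25 and 8.25 on the C arrays, 8.16, 8.23 and 8.19 on the C + P arrays, 8.38, 8.13 and 8.34 on the D arrays and 8.26, 8.26 and 8.26 on the D + P arrays. D replicates 1 and 3, which had the lowest shares of probes detected, lay above all other arrays and D replicate 2 below them. The median D against C difference of 0.17 was 0.13 without D replicate 1, 0.24 without D replicate 2 and 0.12 without D replicate 3. With D replicate 2 as the only D array, after the 4 arrays lowest in detected probes were left out, it was -0.01. It was 0.19 with 75th percentile scaling and 0.14 with normexp background correction. The median D + P against D difference of -0.14 was -0.11 without D replicate 1, -0.22 without D replicate 2 and -0.10 without D replicate 3, and with the 4 arrays left out its sign turned, to 0.01 with 52.0% of the probes higher in D + P. It was -0.18 with 75th percentile scaling and -0.11 with normexp background correction. Within groups the median SD of an expressed probe on the log2 scale was lowest among controls (0.17), followed by D + P (0.26), C + P (0.27) and D (0.36).

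**Figure D2:**
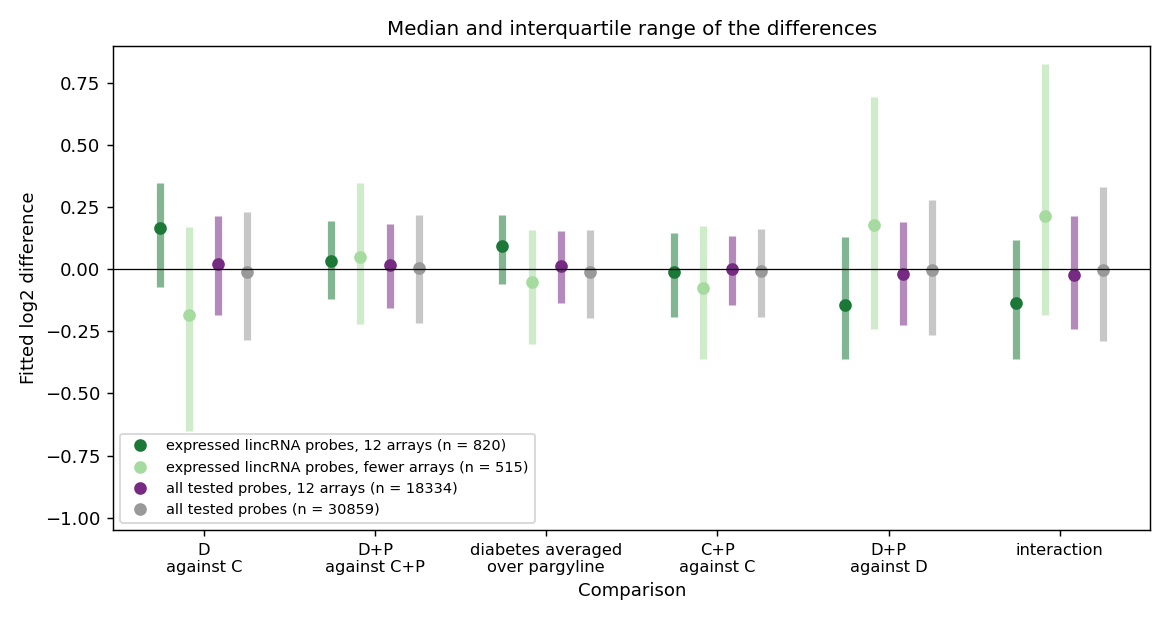
The vertical axis gives the fitted log2 difference and the horizontal axis the 6 comparisons, with the median as a point and the interquartile range as a bar for 4 sets of probes. Expressed lincRNA probes on 12 arrays (dark green) sit at 0.17 for D against C and at -0.14 for D + P against D, where all tested probes with that detection (purple) sit at 0.02 and -0.02; without the 4 arrays lowest in detected probes the expressed probes' medians were -0.01 and 0.01.

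The probe closest to the threshold lay downstream of the Neat1 gene probes, on their strand. It belongs to chr19:5834117-5835940 on the reverse strand, 8183 bases from the nearest Neat1 gene probe on the same strand. Its normalised log2 intensity was 10.27, 10.23 and 10.12 in C, 10.24, 10.70 and 11.14 in C + P, 8.85, 9.12 and 7.54 in D, and 9.45, 9.56 and 9.20 in D + P. Each D array lay below each C array and each D + P array below each C + P array, and D replicate 3 was the lowest. Averaged over pargyline, diabetic hearts differed by -1.49 ± 0.26 (SE, n = 6 against 6), with an adjusted p of 0.0733 in limma. Alone, D against C gave -1.70 ± 0.37 (SE, n = 3 against 3) with an adjusted p of 0.237, and D + P against C + P gave -1.29 ± 0.37 (SE, n = 3 against 3) with 0.419. Without the 4 arrays lowest in detected probes, which leaves D replicate 2 as the only D array, the D against C difference was -1.08. The averaged difference ran from -1.65 to -1.25 over its alternatives. Its adjusted p ran from 0.0210 with array weights to 0.208 without C replicate 3, and it passed under 4 of them, being 0.0296 with normexp background correction, 0.0425 with the stricter filter on detection and 0.0465 without D replicate 3.

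Neat1 is known to be made in a short and a long form that start at the same site. The array's own NEAT1 lincRNA probe, in chr19:5842306-5845476, had log2 intensities of 14.36, 14.48 and 14.16 in C, 13.37, 14.57 and 14.89 in C + P, 14.23, 13.65 and 12.67 in D, and 14.76, 14.19 and 14.60 in D + P. Its D arrays overlapped the C arrays, and its D + P arrays overlapped the C + P arrays. Its differences were -0.81 ± 0.43 (SE, n = 3 against 3) for D against C and 0.24 ± 0.43 (SE, n = 3 against 3) for D + P against C + P, with adjusted p of 0.510 and 0.921. The 2 gene probes of Neat1 gave -0.99 and -0.22 for D against C and 0.08 and 0.06 for D + P against C + P on the log2 scale. In hearts with pargyline the downstream probe was lower in diabetic hearts, while the NEAT1 lincRNA probe and the 2 gene probes differed by at most 0.24. The difference between these probes was not tested. Whether the downstream region belongs to the long form cannot be read from the files, which do not give exons.

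Further along the same strand, the expressed probe of chr19:5798135-5800557 had log2 intensities of 13.41, 13.58 and 13.19 in C, 11.84, 13.48 and 13.50 in C + P, 13.06, 12.50 and 11.59 in D, and 12.88, 13.13 and 12.98 in D + P. All D arrays lay below all C arrays, and the D + P arrays lay within the range of the C + P arrays. The D against C difference was -1.01 ± 0.45 (SE, n = 3 against 3) with an adjusted p of 0.462, and D + P against C + P was 0.06 ± 0.45 (SE, n = 3 against 3) with 0.984. On the forward strand of this stretch of chromosome 19, expressed probes of chr19:5841103-5845579 and chr19:5795690-5797464 gave 0.44 and 0.01 for D against C. The array labels these regions by position and not by a gene name, and they are not taken as parts of Neat1.

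**Figure D3:**
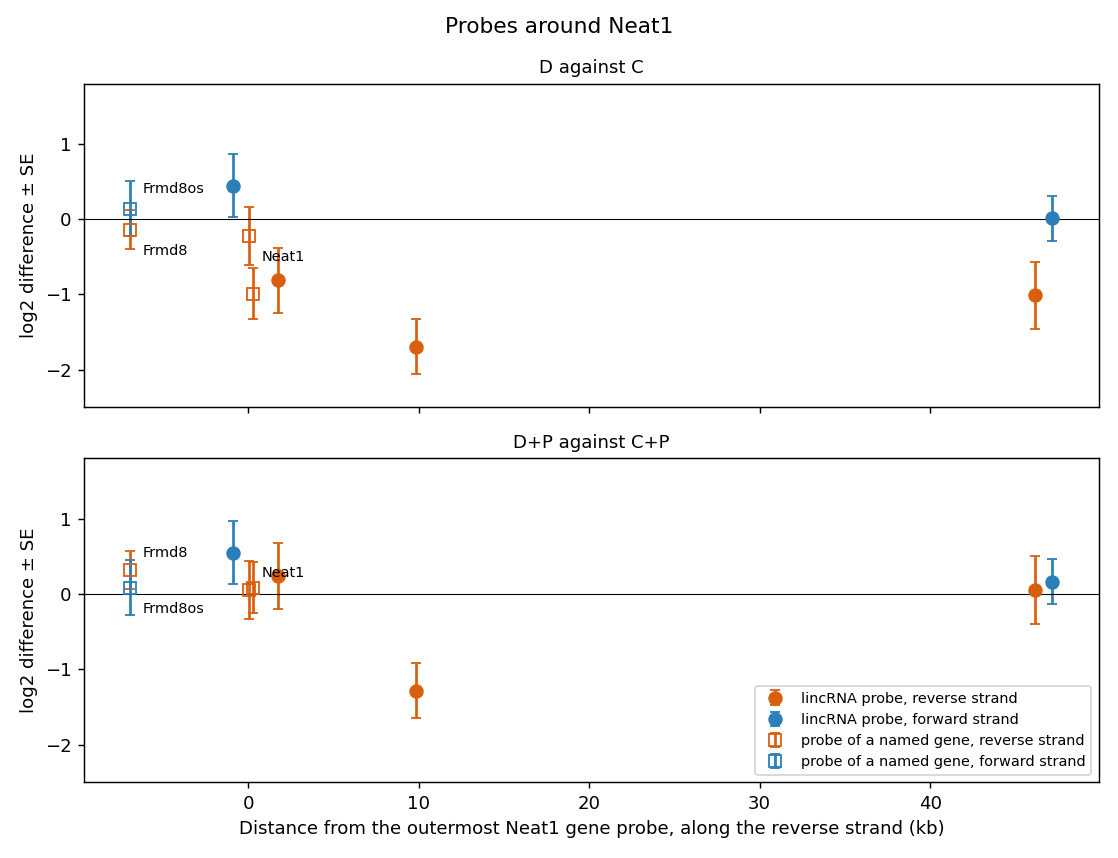
The horizontal axis gives the distance in kb from the outermost Neat1 gene probe, counted along the reverse strand, and the vertical axis the fitted log2 difference with its SE (n = 3 against 3) for D against C (top) and D + P against C + P (bottom). Filled circles are expressed lincRNA probes and open squares probes of named genes; the probe about 10 kb along lies at -1.70 and -1.29, whereas the NEAT1 lincRNA probe and the Neat1 gene probes lie between -0.99 and -0.22 in the top panel and above 0 in the bottom panel.

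The next smallest adjusted p for diabetes averaged over pargyline belonged to chr19:56815544-56821403 on the reverse strand, 16270 bases from a probe of Adrb1, the main β-adrenergic receptor of heart muscle, which is read from the opposite strand. Its log2 intensity was 9.22, 9.62 and 9.55 in C, 9.36, 9.60 and 9.46 in C + P, 10.22, 10.04 and 9.81 in D, and 10.11, 10.30 and 10.24 in D + P. Every diabetic heart lay above every non-diabetic heart, with or without pargyline. The averaged difference was 0.65 ± 0.12 (SE, n = 6 against 6) and the adjusted p 0.0828. It ran from 0.0315 with array weights to 0.221 without D + P replicate 2, and was 0.0456 under the stricter filter. Adrb1 itself differed by 0.17 with an adjusted p of 0.620.

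Expressed probes on 12 arrays whose diabetic and non-diabetic hearts did not overlap, both without and with pargyline, in the same direction numbered 16, of which 14 were higher and 2 lower in diabetic hearts. These 16 are 1.95% of the 820, against 3.13% of the tested probes with the same detection. Besides the probe near Adrb1, those with most difference on the higher side were chr2:77655293-77657696, chr9:41488229-41545481, chr8:18587198-18592948 and chr12:88216447-88224965. The probe of chr2:77655293-77657696, 76531 bases from a probe of the splicing factor Cwc22, had log2 intensities of 6.46, 6.07 and 6.29 in C, 6.14, 6.05 and 5.77 in C + P, 7.53, 6.48 and 6.61 in D, and 6.30, 6.94 and 6.80 in D + P, an averaged difference of 0.64 ± 0.20 (SE, n = 6 against 6) and an adjusted p of 0.273. The probe of chr9:41488229-41545481 had 6.65, 6.30 and 6.46 in C, 6.58, 6.37 and 6.24 in C + P, 7.05, 6.75 and 6.67 in D, and 6.92, 6.78 and 7.24 in D + P. Its averaged difference was 0.47 ± 0.13 (SE, n = 6 against 6) with an adjusted p of 0.235, and no protein-coding gene probe lay nearer than the lncRNA LOC115486408, 65871 bases away.

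For chr8:18587198-18592948, 39294 bases from a probe of Mcph1, a chromosome condensation and DNA damage gene that was itself well above background on 0 arrays, the log2 intensities were 6.50, 6.42 and 6.52 in C, 6.37, 6.09 and 6.34 in C + P, 6.94, 6.96 and 6.73 in D, and 7.00, 6.50 and 6.68 in D + P. The averaged difference was 0.43 ± 0.12 (SE, n = 6 against 6) with an adjusted p of 0.230. The region chr12:88216447-88224965 holds a probe of Irf2bpl on the opposite strand. Its lincRNA probe had 6.56, 6.42 and 6.53 in C, 6.92, 7.03 and 6.68 in C + P, 7.20, 6.61 and 7.37 in D, and 7.06, 7.40 and 7.08 in D + P, an averaged difference of 0.43 ± 0.15 (SE, n = 6 against 6) and an adjusted p of 0.330, while the Irf2bpl probe differed by -0.27. On the lower side, besides the probe downstream of the Neat1 gene probes, chr5:149947200-149979950 had 7.46, 7.65 and 7.68 in C, 7.65, 7.89 and 7.82 in C + P, 7.24, 7.46 and 7.26 in D, and 7.63, 7.37 and 5.73 in D + P. D + P replicate 3 stood apart below its group there, and the averaged difference of -0.58 ± 0.28 (SE, n = 6 against 6) had an adjusted p of 0.463. It was -0.28 without that array. With normexp background correction the differences of the regions on chromosomes 2, 9, 8, 12 and 5 were 0.29, 0.28, 0.24, 0.17 and -0.24. Without the 4 arrays lowest in detected probes that on chromosome 12 was 0.24.

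**Figure D4:**
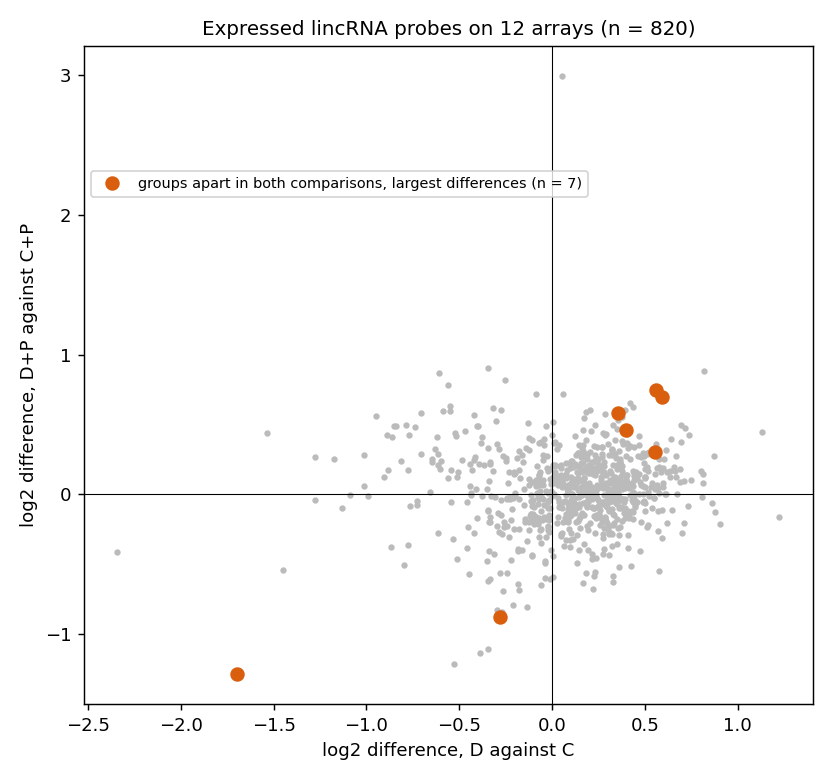
Each grey point is one of the 820 expressed lincRNA probes on 12 arrays, with the log2 difference of D against C on the horizontal and of D + P against C + P on the vertical axis, which share no arrays; orange points are the 7 probes named for diabetes averaged over pargyline. The orange point at -1.70 and -1.29 is the probe downstream of the Neat1 gene probes, and the grey point at 3.00 on the vertical axis rests on 1 array, D + P replicate 2, with 16.26 against 7.51 to 7.90 on the other arrays.

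For D against C the probes named are those with the largest differences, outside chromosome 18, among probes well above background on all arrays of both groups whose groups did not overlap. On the higher side, chr19:36699712-36763966 on the reverse strand had log2 intensities of 6.34, 6.09 and 5.83 in C, 6.84, 6.22 and 6.22 in C + P, 7.34, 7.03 and 7.28 in D, and 6.35, 7.27 and 6.99 in D + P. All D arrays lay above all C arrays, and D + P overlapped C + P. The difference was 1.13 ± 0.26 (SE, n = 3 against 3) with an adjusted p of 0.265. With array weights it was 1.06 with an adjusted p of 0.0476 in limma, the only alternative under which it passed. Next by this rule came chr14:76237150-76237464 at 0.91 and chr12:89479525-89503525 at 0.90. With normexp background correction the 3 differences were 0.59, 0.46 and 0.48. On the lower side chr16:23992037-24001037, 26818 bases from a probe of the transcriptional repressor Bcl6, gave -1.54 ± 0.81 (SE, n = 3 against 3), and chr9:27153416-27153677 gave -1.45 ± 0.93 (SE, n = 3 against 3). Their D arrays ran from 7.18 to 9.39 and from 9.82 to 12.20, below all C arrays but widely spread, and the adjusted p values were 0.506 and 0.567. Without D replicate 2 the first was -0.81, and without D replicate 1 the second was -0.65. Without the 4 arrays lowest in detected probes these were -3.0 and -0.66, and that of chr12:89479525-89503525 was 0.39. In D + P against C + P the lower probes, besides that downstream of the Neat1 gene probes, were those of chr2:77146893-77155643 and chr2:77152807-77155092, whose reverse-strand regions overlap and do not count as separate observations. The probe of the longer region had log2 intensities of 6.71, 6.98 and 6.76 in C, 7.57, 7.78 and 7.57 in C + P, 5.97, 6.15 and 6.76 in D, and 7.45, 6.13 and 5.70 in D + P. All its D + P arrays lay below all C + P arrays, by -1.21 ± 0.38 (SE, n = 3 against 3) in the mean with an adjusted p of 0.497. The probe of the shorter region gave -1.11 ± 0.29 (SE, n = 3 against 3) with 0.368. With normexp background correction the 2 probes gave -0.62 and -0.67. Without D + P replicate 1 the longer region gave -1.72 and an adjusted p of 0.0477, the lowest over its alternatives, the highest being 1. On the higher side chr17:27703181-27716306, beside the phosphohydrolase gene Nudt3 on the same strand, gave 0.82 ± 0.33 (SE, n = 3 against 3) with 0.633, or 0.49 without D + P replicate 3 and 0.54 with normexp background correction. The probes of chr6:31007184-31007725 and chr13:24615451-24615973 gave 1.21 and 1.09, the latter 0.55 with normexp background correction.

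With pargyline, the probe of chr10:24269165-24276690 on the forward strand was lower in both non-diabetic and diabetic hearts. It lies 41591 bases from a probe of Ccn2, a matrix-associated protein of fibrosis, on the same strand. Its log2 intensity was 8.95, 8.81 and 8.79 in C, 8.04, 7.94 and 7.64 in C + P, 9.60, 9.32 and 9.71 in D, and 7.94, 8.14 and 8.67 in D + P. The C + P arrays lay below all C arrays and the D + P arrays below all D arrays. C + P against C gave -0.98 ± 0.21 (SE, n = 3 against 3) with an adjusted p of 0.420, and D + P against D gave -1.30 ± 0.21 (SE, n = 3 against 3) with 0.122. With array weights the first of these was -0.96 with an adjusted p of 0.0114, the lowest over its alternatives, which reached 1 under the methods' t-test with Bonferroni adjustment. Ccn2 itself gave 0.76 and -0.49 on the log2 scale, with adjusted p of 1.00 and 0.571.

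The probe of chr11:97457180-97487074 on the reverse strand showed the same order of groups. Its log2 intensities were 8.15, 7.71 and 7.75 in C, 7.55, 6.79 and 5.86 in C + P, 8.51, 8.50 and 9.06 in D, and 7.53, 7.29 and 8.01 in D + P. It gave -1.14 ± 0.38 (SE, n = 3 against 3) for C + P against C and -1.08 ± 0.38 (SE, n = 3 against 3) for D + P against D, with adjusted p of 0.997 and 0.273. The region holds a probe of the lncRNA 2410003L11Rik on the opposite strand, which was well above background on 0 arrays. Another region lower with pargyline in non-diabetic hearts was chr2:175898018-175930211, at -1.13 ± 0.41 (SE, n = 3 against 3), or -0.51 with normexp background correction and -0.70 without C + P replicate 1. Without C + P replicate 3 the difference of chr11:97457180-97487074 was -0.70.

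Higher with pargyline in non-diabetic hearts was chr4:131905739-131910814 on the forward strand, a region that holds a probe of Snhg3, a host gene of small nucleolar RNAs, on the opposite strand. The log2 intensities were 11.28, 11.05 and 11.68 in C, 12.19, 12.49 and 12.34 in C + P, 11.62, 10.79 and 12.11 in D, and 11.36, 12.09 and 11.67 in D + P. The C + P arrays lay above all C arrays, whereas D and D + P overlapped. C + P against C gave 1.01 ± 0.32 (SE, n = 3 against 3) with an adjusted p of 0.990, while the Snhg3 probe gave -0.05. The probe of chr9:56910620-56919495, 149 bases from a probe of the phosphatase gene Ptpn9 on the opposite strand, gave 0.94 ± 0.30 (SE, n = 3 against 3), and chr15:79709500-79714700 gave 0.84, or 0.54 with normexp background correction.

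In D + P against D, chr3:58118325-58136550 on the forward strand had the largest difference among the 1335 tested probes. Its log2 intensities were 9.47, 12.57 and 13.29 in C, 12.45, 13.29 and 13.74 in C + P, 8.49, 7.82 and 12.00 in D, and 12.29, 13.55 and 12.39 in D + P. All D + P arrays lay above all D arrays, but C replicate 1 lay far below C replicates 2 and 3, and D replicate 3 far above the other D arrays. The difference was 3.31 ± 1.13 (SE, n = 3 against 3) with an adjusted p of 0.271, or 5.16 without the 4 arrays lowest in detected probes, which leaves 1 D array. Higher in D + P were also chr12:77544397-77564122 at 1.37 and chr13:108653722-108654406 at 1.32, the former 0.90 without D replicate 1. Lower in D + P was chr12:82495575-82516300 on the forward strand, with 7.14, 7.19 and 8.96 in C, 7.60, 7.87 and 7.96 in C + P, 8.53, 9.15 and 9.29 in D, and 7.44, 7.71 and 7.79 in D + P, a difference of -1.34 ± 0.42 (SE, n = 3 against 3) and an adjusted p of 0.243.

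**Figure D5:**
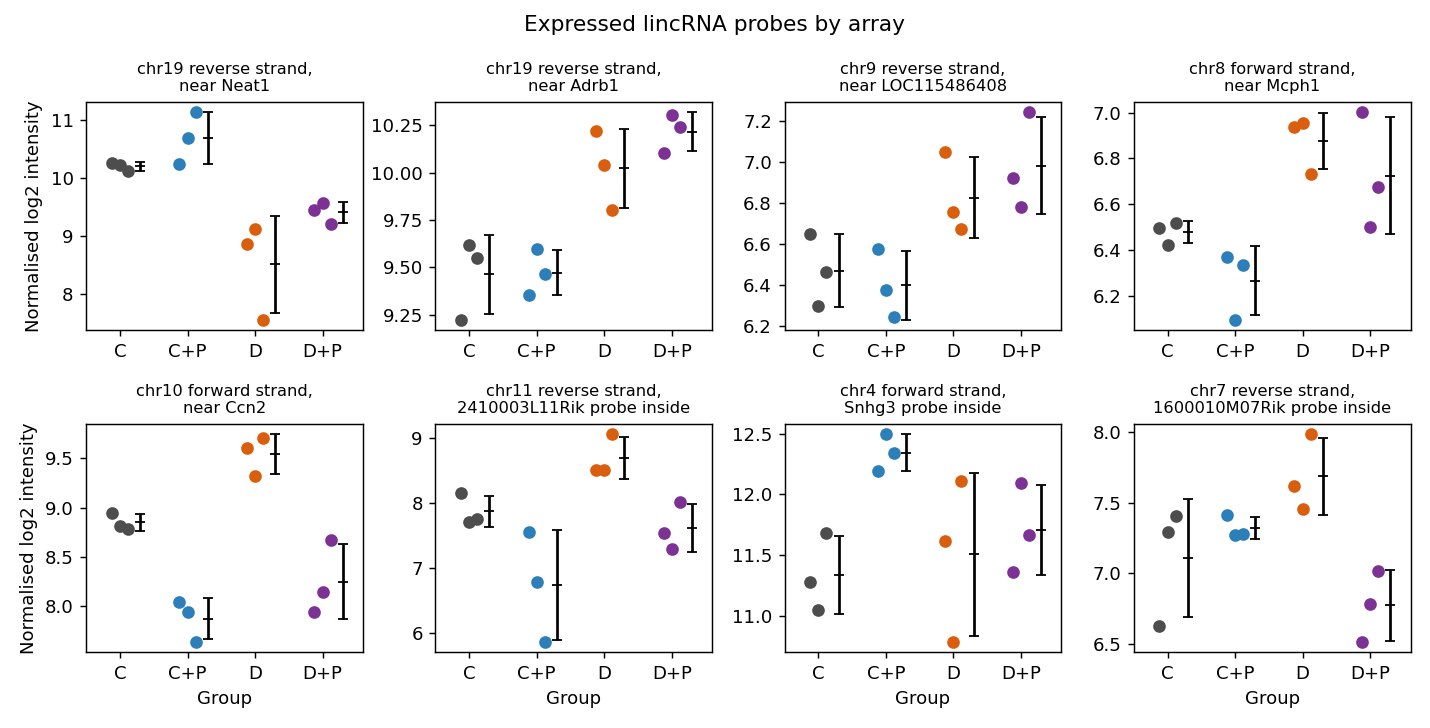
Each panel shows 1 expressed lincRNA probe, with the normalised log2 intensity on the vertical axis, a point per array (3 per group) and the group mean with its SD as a black bar. The axes differ between panels and do not start at 0; in the first 4 panels D does not overlap C and D + P does not overlap C + P, and the groups with pargyline lie below those without it in the panels near Ccn2 and with 2410003L11Rik.

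The interaction was computed as the D + P against C + P difference less the D against C difference. Here the probe of chr7:117140887-117152562 on the reverse strand had diabetic hearts above the controls without pargyline and below them with it. Its log2 intensities were 6.63, 7.29 and 7.40 in C, 7.41, 7.28 and 7.28 in C + P, 7.62, 7.46 and 7.99 in D, and 6.51, 6.78 and 7.02 in D + P. D against C gave 0.58 ± 0.23 (SE, n = 3 against 3) and D + P against C + P -0.55 ± 0.23 (SE, n = 3 against 3), and neither pair of groups overlapped. The interaction was -1.13 ± 0.33 (SE) with an adjusted p of 0.595, or -0.74 with normexp background correction and -0.72 without the 4 arrays lowest in detected probes. The region holds a probe of the lncRNA 1600010M07Rik on the same strand, which gave -0.09 and 0.13. Opposite directions without overlap occurred in 15 of 1335 expressed probes (1.12%), against 0.836% of all tested probes, a count that includes probes detected on fewer arrays. The interaction of chr3:58118325-58136550 was 1.93, that of chr16:23992037-24001037 1.98, that of chr10:116814196-116920696 1.55, that of chr12:82495575-82516300 -1.39 and that of chr11:53574182-53574644 -1.12, and their adjusted p lay between 0.703 and 0.800. That of chr3:58118325-58136550 ran from 1.12 without D replicate 2 to 3.21 without D replicate 3, and was 3.08 without C replicate 1 and 1.17 without C replicate 3. That of chr16:23992037-24001037 was 1.25 without D replicate 2, that of chr10:116814196-116920696 0.86 without D replicate 1 and that of chr11:53574182-53574644 -0.64 without D replicate 3. Without the 4 arrays lowest in detected probes, which leaves 1 D array, the interactions of chr3, chr16, chr10 and chr11 were 3.42, 3.05, 0.52 and -0.04.

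Outside chromosome 18, 86 expressed probes were well above background on all 3 arrays of 1 group and on 0 of 3 arrays of another. This is a description of how they were chosen. The same count was not made for the other probes that met the rule, so it is not read as a trait of lincRNA probes. For the 86 probes a bound was computed, the mean of the brighter group over a mean of the dimmer group. In the dimmer group each array's value was the higher of the probe's own signal and the lowest signal of any probe well above background on that array. The probe of chr17:9898206-9919226 on the reverse strand had log2 intensities of 3.11, 3.06 and 3.99 in C, 3.18, 3.74 and 3.04 in C + P, 6.19, 3.24 and 3.17 in D, and 7.63, 6.70 and 7.16 in D + P. It was well above background on all D + P arrays, on D replicate 1 and on 0 C and C + P arrays, and it was at least 5.08-fold brighter in D + P hearts than in controls. It missed the filter and was not tested. The probe of chr6:125330524-125410249, 382 bases from a probe of the tetraspanin gene Cd9 on the opposite strand, had 6.21, 6.77 and 7.25 in C, 6.10, 5.92 and 4.96 in C + P, 7.19, 6.94 and 7.13 in D, and 5.47, 5.23 and 4.91 in D + P. It was at least 3.66-fold brighter in D hearts than in D + P hearts, and the adjusted p of D + P against D in limma was 0.122.

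The probe of chr9:31390809-31591204 on the forward strand was well above background on all arrays without pargyline and on 0 of 6 with it, at 5.74, 5.80 and 5.46 in C, 4.50, 4.62 and 4.50 in C + P, 6.13, 6.13 and 6.45 in D, and 2.97, 3.58 and 4.11 in D + P. It was at least 2.24-fold brighter in D hearts than in D + P hearts, but missed the filter and was not tested. The probes of chr8:15580278-15583962 and chr5:107503800-107515575 gave bounds of at least 2.11-fold for D over C and 2.08-fold for D over C + P.

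Of the lincRNA probes labelled by a gene name, NEAT1, TUG1 and KCNQ1ot1 were expressed. The TUG1 probe had log2 intensities of 7.86, 7.69 and 7.49 in C, 7.76, 7.66 and 7.57 in C + P, 7.95, 7.97 and 7.34 in D, and 7.71, 7.97 and 7.66 in D + P, and its groups overlapped in every comparison. The KCNQ1ot1 probe had 8.16, 8.34 and 8.37 in C, 8.34, 8.40 and 8.18 in C + P, 8.89, 8.32 and 8.85 in D, and 8.11, 8.29 and 8.42 in D + P. It is placed on the forward strand, whereas the Kcnq1ot1 gene probes of the array lie on the reverse strand. Which transcript it reads is not given, and its D against C difference of 0.39 ± 0.18 (SE, n = 3 against 3) had an adjusted p of 0.463. The probes labelled HOTAIR, lincP21, NRON, PINC, TSIX and XIST were well above background on 0 of 12 arrays. For comparison, a list of 45 annotated long non-coding RNA genes matched 81 gene probes of 38 symbols, of which 51 were tested. In diabetes averaged over pargyline 1 of the 51 passed, higher in diabetic hearts, an H19 gene probe (log2 difference 1.24, adjusted p = 0.0425). In the other 5 comparisons 0 passed. At an unadjusted p of 0.05 in limma, 2 of the 51 were higher and 6 lower for D against C (10.8% of all tested probes fell below it). The counts were 3 and 0 for D + P against C + P (7.46% of all), and 0 and 0 for C + P against C (4.43%). They were 9 and 1 for D + P against D (13.3%), and 7 and 1 for the interaction (7.03%). Airn, Kcnq1ot1 and Meg3 each gave more than 1 of the 9, so these are not separate genes.

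Expressed probes of the same region and strand formed 49 pairs, which share a locus and are not independent. Across these pairs Pearson's r of the log2 differences was 0.52 for diabetes averaged over pargyline, 0.42 for D against C and 0.60 for D + P against C + P. In the 24 pairs on 12 arrays it was 0.07, 0.13 and 0.49. Expressed probes were also set beside their nearest named gene probe, in the 931 pairs where both were tested. There r was 0.07 for D against C, 0.05 for D + P against C + P, 0.07 for C + P against C and 0.05 for D + P against D. Where that gene probe lay inside the region on the same strand (74 pairs), r was 0.32 for D against C and 0.07 for D + P against C + P. These are descriptions across probes of the same 12 arrays.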

How the data were processed

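RNA of mouse heart was labelled with Cy3 (200 ng per sample) and hybridised by the authors to single-colour Agilent arrays. Samples were grouped by their labels. The deposited scanner files hold spot intensity on a linear scale, background-subtracted by Feature Extraction 12.0.0.7 per the file headers, with flags of 0 or 1; coordinates are mm9. The authors' methods name another version of that software. The deposited value table, as used here, holds no lincRNA probes and served only to check the ranks of the scanner intensity.

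Intensity of non-control spots was log2 transformed and quantile normalised, with outlier spots set to missing and repeated spots averaged. Probes were kept where each group had a positive and significant signal on 50% or more of its arrays (30859 probes). Linear models with a mean for each group over the 12 arrays were fitted in limma (version 3.58.1, R 4.3.3) with empirical Bayes moderation and two-sided tests, and p-values were adjusted by Benjamini-Hochberg over all of them. The fit was checked on simulated data. Each array is a separate mouse.

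Gene names came from RefSeq (GRCm38.p6), without its coordinates. Python 3.11.15 with pandas 2.3.3, numpy 2.4.6 and matplotlib 3.10.9, and the R package data.table (version 1.17.8) handled the data and figures. The probes, lists and tests were chosen with earlier results of these data known. Named probes are, among expressed ones, those with the largest differences whose groups do not overlap (up to 5 in each direction for diabetes averaged over pargyline and on 12 arrays, 3 for each other contrast), 3 interactions in each direction, up to 5 detected in 1 group and on 0 arrays of another, and up to 5 regions expressed on both strands. Chromosome 18 was counted but not named, and was left out of the count of 86. The probes labelled by a gene name, the regions on chromosome 19 around Neat1 and the complementary pairs were named, and some of their sequences shown, outside this rule, after their values had been seen. Alternatives covered scaling, background correction, filters, array weights, the methods' t-test, a replicate block and leaving out arrays.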

Additional observations from a re-analysis of the deposited data

Results flagged for a closer look

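The reverse-strand probe of chr7:117140887-117152562 lay in opposite directions in the 2 diabetes comparisons, with every D array above every C array and every D + P array below every C + P array. The interaction was -1.13 on the log2 scale, and its adjusted p of 0.595 in limma did not pass. It was -0.74 with normexp background correction and -0.72 without the 4 arrays lowest in detected probes.

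The lincRNA probe labelled H19, in chr7:149761435-149764019 on the reverse strand, lies outside the expressed probes, since it was well above background on 1 C, 2 D and 2 D + P arrays and so on all 3 arrays of no group. Its log2 intensity was 5.09, 4.89 and 4.78 in C, 4.55, 4.55 and 3.90 in C + P, 6.31, 6.53 and 6.73 in D, and 5.08, 6.46 and 6.51 in D + P. Diabetic hearts lay above non-diabetic hearts both without and with pargyline. Among the 634 tested lincRNA probes outside the expressed ones it was the only probe below an adjusted p of 0.05 in any of the 6 comparisons, with an adjusted p of 0.0453 for diabetes averaged over pargyline. The fitted log2 value of 1.64 is not a measured size, since the probe was well above background on 0 of 3 C + P arrays and on 1 of 3 C arrays. A gene probe of H19 in the same region and strand, well above background on 12 arrays, differed by 1.24 with an adjusted p of 0.0425.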

How the results depend on the processing

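The number of expressed lincRNA probes below an adjusted p of 0.05 was 0 in each of the 6 comparisons and was 0 in 115 recomputed counts and above 0 in 14. Calls over all tested probes at the same setting are given after each count. For D against C it was 15 of 279 with array weights. For diabetes averaged over pargyline it was 1 of 43 with normexp background correction, 2 of 78 with the filter for signal well above background on 3 arrays of a group and 9 of 348 with array weights. For C + P against C it was 9 of 206 with array weights, and for D + P against D 1 of 9 without a filter on low values and 2 of 13 with the stricter filter. The first of these, also among the second, was the probe of chr9:31390809-31591204, which was well above background on 0 D + P arrays, so that no fold is given there. Leaving out 1 array gave 0 to 1 for D against C (1 of 5 without D replicate 2), 0 to 1 for D + P against C + P and for D + P against D (1 of 33 and 1 of 1 without D + P replicate 1, and 1 of 3 in the second without D + P replicate 3), 0 to 2 for diabetes averaged over pargyline (1 of 10 without D replicate 2, 1 of 22 without D replicate 3, 2 of 116 without D + P replicate 1), and 0 for C + P against C and the interaction. For the 4 comparisons of single groups, the methods' t-test gave 0 after Benjamini-Hochberg and after Bonferroni adjustment. Replicate numbers showed no sign of pairing the mice, although weak correlation cannot exclude it. Same-numbered arrays of different groups correlated at -0.20 to 0.20 with a median of 0.03, and 4 of 18 pairs lay over 0.1. Different-numbered arrays correlated at -0.19 to 0.21 with a median of -0.008, and 8 of 36 pairs lay over 0.1. A fit with a replicate block gave 0 in each comparison. Leaving out the 4 arrays lowest in detected probes, added after the data had been seen, gave 0 and left 1 D array. Array weights ran from 0.242 for D replicate 1 to 3.32 for C + P replicate 2, and the cause of the calls they gave was not tested. The probe downstream of the Neat1 gene probes passed for diabetes averaged over pargyline under 4 of its alternatives. Among the 37 differences of named probes 0 reversed direction under any alternative run, but 25 moved by over 1.5 times under at least 1 of them, 16 with normexp background correction, 12 without the 4 arrays and 4 with array weights. Detection on all 12 arrays in place of 1 group left 820 of 1340 expressed probes. The 26 alternatives for the share of lincRNA probes detected kept its direction and side of the threshold. The deposited value table gave no value for these probes. Precision is limited by 3 arrays a group, and 520 expressed probes were not well above background on every array.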
